A study of Mus musculus with 12 samples.

Results

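S100 proteins are small calcium-binding proteins of the EF-hand type, and annexins are proteins that bind acidic membrane phospholipids when calcium rises. This account follows 10 genes of the families, S100a4, S100a6, S100a8, S100a9, S100a10, S100a11, Anxa1, Anxa2, Anxa3 and Anxa5, chosen by name and read from every array probe set annotated to 1 of them alone. The choice was made with earlier results of these data known. Of these genes 9 had such a probe set, 14 probe sets in all out of 45101 on the array. The single probe set annotated to S100a11 also carries the names of the genes S100a11-ps and Gm12854, so S100a11 has no value here. A probe set was tested if its signal lay above its own array's median in at least 3 of the 12 arrays. That left 7 members with 10 probe sets, and S100a8 and S100a9 did not pass.

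Transcript levels were measured on Affymetrix Mouse Genome 430 2.0 arrays in kidney cortex. ICGN mice, which descend from the ICR stock, are labelled with nephrotic syndrome, and ICR mice are labelled normal. ICGN mice carry a mutation of Tns2, the gene of an adaptor protein that podocytes express. The groups were ICGN at 8 weeks, ICR at 8 weeks, ICGN at 4 weeks and ICR at 4 weeks, with 3 arrays each. The labels name neither a sex nor the number of mice behind an array, and the strains differ in more than Tns2. The p-values therefore measure the spread between these arrays, and a strain difference cannot be told apart from an effect of the mutation. In bulk cortex, fewer cells of a type and less RNA per cell cannot be told apart either.

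Levels are the authors' signals after each array was brought to a common median of 40.4, so a signal of 40.4 is the level of the median probe set. Log2 fold changes were computed on log2(signal + 11), have the median change over all tested genes of that comparison subtracted, and carry the standard error of the fit. The subtracted median was -0.18 between strains at 8 weeks and -0.02 at 4 weeks. The test and its p-values are on the changes before that subtraction. A gene was called at a Benjamini-Hochberg adjusted p of 0.05 or less from limma's moderated test over 12385 genes, and only called genes are said to have risen or fallen. Tns2 had 114, 60.0 and 48.4 in ICGN against 337, 309.6 and 314 in ICR at 8 weeks, and 96.2, 71.8 and 66.5 in ICGN against 318, 334 and 343 in ICR at 4 weeks. All 10 of the proximal tubule markers set as a check on the tissue passed the filter, with a summed signal of at least 56947 in every array.

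The families work together at membranes. S100a10 and Anxa2 encode the partners of a heterotetramer that ties the cell cortex to the plasma membrane, carries channels to the surface and binds plasminogen and its activator. S100a8 and S100a9 encode calprotectin, the abundant calcium- and zinc-binding complex of neutrophils and monocytes, and S100a4, also called fibroblast-specific protein, is expressed by stromal cells and by leukocytes.

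A run of 15 S100a genes lies on chromosome 3. By RefSeq annotation of GRCm38.p6 their order runs from S100a1 through S100a13, S100a14, S100a16, S100a3, S100a2, S100a4, S100a5, S100a6, S100a7a, S100a8, S100a9 and S100a7l2 to the neighbours S100a11 and S100a10. Of the 6 that were tested at 8 weeks, S100a4, S100a6 and S100a10 rose, while S100a1 (-0.03), S100a13 (0.38) and S100a16 (0.10) did not pass. Over all tested genes 8.49% were called higher at that age and 26.0% lower. All of those that rose are members chosen beforehand. Anxa5 also lies on chromosome 3, Anxa1 on chromosome 19, Anxa2 on chromosome 9 and Anxa3 on chromosome 5.

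The start regions of 4 members that rose at 8 weeks are shown, because these genes were all called higher in ICGN at that age and their windows differ in the motifs they hold. Each runs 5' to 3' on the gene's strand from 250 bases before the annotated start to 50 after it, from RefSeq, build GRCm38.p6. They are chr3:90603520-90603819 on the plus strand for S100a4, chr3:90612644-90612943 plus for S100a6, chr19:20390622-20390921 minus for Anxa1 and chr9:69453433-69453732 plus for Anxa2. Capitals mark TATAAA, the letters of a TATA box, and TGANTCA, the letters of an AP-1 site, searched on both strands.
S100a4: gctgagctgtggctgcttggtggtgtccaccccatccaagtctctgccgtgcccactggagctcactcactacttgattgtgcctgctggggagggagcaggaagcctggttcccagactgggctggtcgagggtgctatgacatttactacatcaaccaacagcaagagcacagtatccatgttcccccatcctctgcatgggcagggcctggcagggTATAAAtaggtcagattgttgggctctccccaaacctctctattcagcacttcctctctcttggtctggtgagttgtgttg
S100a6: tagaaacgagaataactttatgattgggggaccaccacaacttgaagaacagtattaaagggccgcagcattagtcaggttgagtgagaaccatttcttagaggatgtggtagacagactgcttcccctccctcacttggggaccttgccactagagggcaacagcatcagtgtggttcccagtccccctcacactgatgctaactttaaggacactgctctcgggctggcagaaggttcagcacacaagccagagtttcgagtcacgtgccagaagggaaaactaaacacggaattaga
Anxa1: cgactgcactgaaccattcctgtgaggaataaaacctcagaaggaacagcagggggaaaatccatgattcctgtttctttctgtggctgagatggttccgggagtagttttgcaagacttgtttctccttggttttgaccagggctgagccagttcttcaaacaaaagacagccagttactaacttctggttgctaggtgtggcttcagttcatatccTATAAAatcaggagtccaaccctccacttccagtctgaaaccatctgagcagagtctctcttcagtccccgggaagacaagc
Anxa2: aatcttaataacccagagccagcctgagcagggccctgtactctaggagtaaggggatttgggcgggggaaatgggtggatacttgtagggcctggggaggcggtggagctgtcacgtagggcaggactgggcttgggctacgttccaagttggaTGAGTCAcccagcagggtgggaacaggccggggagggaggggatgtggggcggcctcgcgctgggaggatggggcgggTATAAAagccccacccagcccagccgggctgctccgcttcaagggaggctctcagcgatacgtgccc
The letters TATAAA began 31 bases before the start of S100a4, 32 before that of Anxa1 and 17 before that of Anxa2, and S100a6 had none. S100a8, which was not above the median in 11 of 12 arrays, had them 30 bases before its start. RefSeq windows matched 8 members, of which 5 held TATAAA, against 13.6% of all 32851 windows. Among the 5 tested members with a window, 3 held it.

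TGANTCA stood 95 bases before the start of Anxa2, and 2 of 8 member windows held it against 7.81% of all windows. The letters GGGCGG of a GC box were in 3 of 8 (35.7% of all), an NF-kB motif in 3 of 8 (20.7%), and TTGCNNAA of a C/EBP site in 2 of 8 (10.8%). No match in a member window overlapped a match of another of these motifs, and a match is a run of letters, not a shown binding site.

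The strain comparison at 8 weeks asks how S100 and annexin transcripts differed between nephrotic and normal cortex at the older age. All 7 tested members were higher in ICGN and 0 were lower, against 8.49% of all tested genes called higher and 26.0% called lower. As the members were chosen with earlier results of these data known, that count is a description and not a test of the families. Their median log2 fold change was 1.29, where that of all tested genes is 0 by construction. In 6 of the 7 the ICGN and ICR arrays did not overlap with ICGN higher, against 11.2% of all tested genes, and the exception was S100a10.

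Anxa2, which encodes the membrane-bridging annexin A2, had 1694, 1709.7 and 2374 in ICGN at 8 weeks, against 989.6, 852 and 968 in ICR. The lowest ICGN array lay well above the highest ICR array. Its log2 fold change was 1.20 ± 0.14, or 2.30-fold relative to the median tested gene (limma adjusted p = 9.0e-05). Before the median was subtracted it was 1.02. S100a10, which encodes the light chain bound to annexin A2, had 1712, 1363 and 2156 in ICGN and 924, 1202 and 1383 in ICR. The groups overlapped by 1 array on each side, since the lowest ICGN array fell just under the highest ICR array. The log2 fold change was 0.75 ± 0.16 (adjusted p = 0.0143), the smallest among the 7. That call was lost without ICGN replicate 3 (0.64, adjusted p = 0.061) and without ICR replicate 1 (0.60, adjusted p = 0.068).

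Both genes have further probe sets, which were tested with all 21826 probe sets past the filter. The second bright probe set of S100a10, one whose probes can also match other genes by its _x_at name, gave 0.75 ± 0.22 (adjusted p = 0.0567). Another, dim one gave 0.67 ± 0.24 (adjusted p = 0.123). Both pointed the way of the main probe set without passing. The second probe set of Anxa2 was dim and variable, with 68.4, 30.4 and 108 in ICGN against 47.1, 41.7 and 53.9 in ICR, and did not pass (0.48 ± 0.40, adjusted p = 0.578). The third was below the array median in all 12 arrays and never exceeded 8.25.

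**Figure D1:**
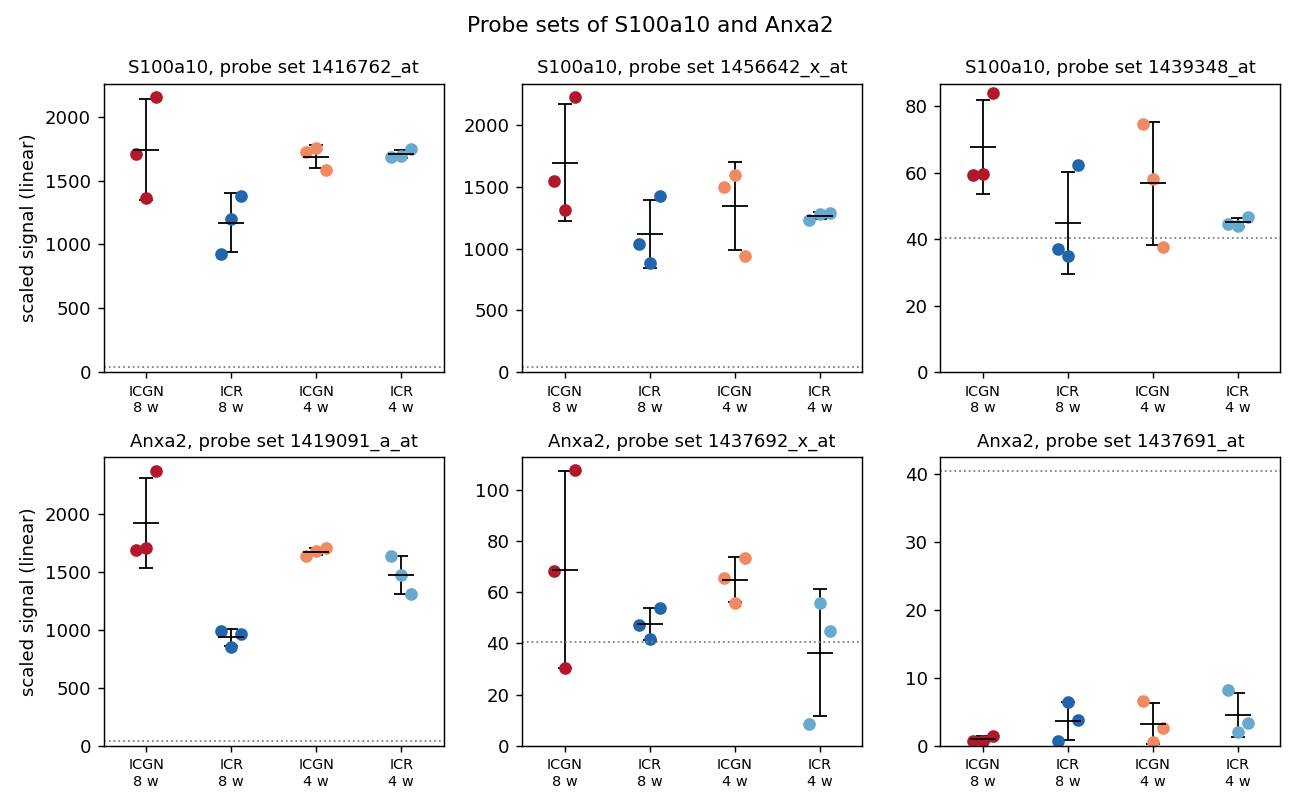
Scaled signal (linear axis) of the 3 probe sets of S100a10 (upper row) and of Anxa2 (lower row) in each array, with 4 groups along the horizontal axis. Points are arrays, black bars the mean ± SD of 3 arrays and the dotted line the common median of 40.4. At 8 weeks the bright probe set of Anxa2 shows ICGN above ICR without overlap and both bright probe sets of S100a10 overlap, while the dimmest probe set of Anxa2, at the right, never exceeds 8.25.

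Partners of the pair were read from a list of genes that bind or receive S100 proteins and annexins. Ahnak, the giant scaffold protein that the complex anchors under the membrane, had 765, 655 and 757 in ICGN against 567, 511 and 492 in ICR at 8 weeks, and rose (0.65 ± 0.14, adjusted p = 0.0209). The tissue plasminogen activator gene Plat (0.33), the plasminogen receptor gene Plgrkt (0.06), the chromatin remodeller gene Hltf (-0.08) and the calcium channel gene Trpv6 (-0.0016) did not pass. Cftr, a chloride channel that the complex regulates, rose (0.75 ± 0.18, adjusted p = 0.0261).

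Anxa1, which encodes the glucocorticoid-induced annexin A1 that restrains leukocyte recruitment, was high in every ICGN array. At 8 weeks it had 1323, 1328 and 1544.5 in ICGN against 696, 493 and 710.1 in ICR, a log2 fold change of 1.33 ± 0.15 (adjusted p = 6.2e-05). The groups lay far apart. A second Anxa1 probe set was below the array median in all 12 arrays and was not tested. Fpr2, the gene of a formyl peptide receptor that annexin A1 binds, was dim, with 36.1, 38.9 and 39.0 in ICGN and 35.5, 13.4 and 16.4 in ICR, and did not pass (0.82 ± 0.36, adjusted p = 0.181). Pla2g4a, the cytosolic phospholipase that annexin A1 inhibits, rose, with 133, 165 and 211 in ICGN and 89.97, 60.9 and 97.8 in ICR (1.13 ± 0.20, adjusted p = 0.00265).

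Anxa3, which encodes an annexin first known from neutrophil granules, changed most among the members. It had 797, 774 and 1152 in ICGN and 298, 236 and 305 in ICR at 8 weeks. That was 3.55-fold relative to the median tested gene (log2 fold change 1.83 ± 0.15, adjusted p = 5.0e-06), and 1.64 on the log2 scale before the median was subtracted. Each ICGN array held more than any ICR array by a wide margin. By size of change in either direction it ranked 132 among the 12385 genes tested. Anxa5, which encodes the annexin that binds phosphatidylserine on dying cells, had 2219.8, 2379 and 3043 in ICGN against 1468, 1289.9 and 1487 in ICR. It was 2.02-fold higher relative to the median tested gene (1.02 ± 0.12, adjusted p = 1.9e-04), and the groups were again apart. Before the median was subtracted its log2 fold change was 0.83.

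S100a4 had 142, 140.2 and 154 in ICGN at 8 weeks, against 67.4, 57.4 and 60.3 in ICR. The 3 ICGN arrays lay close together and above all ICR arrays, for a log2 fold change of 1.29 ± 0.18 (adjusted p = 3.3e-04). S100a6, which encodes calcyclin, a protein of proliferating and stromal cells, had 1039, 1056 and 1163 in ICGN and 628, 458 and 379 in ICR (1.35 ± 0.23, adjusted p = 0.00153). Here the ICR arrays were spread widely and the ICGN arrays were not. The genes of its binding partners Cacybp (-0.09) and Sugt1 (0.20) did not pass. Tpm1, an actin-binding tropomyosin gene, rose (1.10 ± 0.13), and Myh9, whose myosin heavy chain S100A4 binds, did not pass (0.49 ± 0.18, adjusted p = 0.207).

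S100a8 and S100a9 lay near or below the array median in every group. S100a8 had 23.5, 21.7 and 13.9 in ICGN and 38.3, 15.7 and 40.2 in ICR at 8 weeks, and 40.9, 10.025 and 28.1 in ICGN and 31.3, 18.5 and 22.2 in ICR at 4 weeks. S100a9 had 8.98, 5.78 and 6.86 in ICGN and 9.32, 19.2 and 49.1 in ICR at 8 weeks, and 29.1, 13.7 and 1.89 in ICGN and 27.6, 6.24 and 30.1 in ICR at 4 weeks. For each of them 1 of 12 arrays exceeded the array median, and the groups overlapped for S100a8 at both ages. For S100a9 the ICGN arrays lay just below the ICR arrays at 8 weeks. In a fit with no filter, over 18193 genes, neither was called at 8 weeks (S100a8 -0.28 ± 0.33, adjusted p = 0.422, and S100a9 -0.73 ± 0.45, adjusted p = 0.194) or at 4 weeks (S100a8 0.02 ± 0.33, adjusted p = 0.996, and S100a9 -0.36 ± 0.45, adjusted p = 0.835).

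Of the known receptors of calprotectin, Tlr4 did not pass at 8 weeks (0.52 ± 0.21, adjusted p = 0.224). Ager, the gene of another, was too dim to be tested, with a highest signal of 45.4. Cd36, a scavenger receptor and fatty acid transporter, fell, with 1382, 2858 and 2727 in ICGN against 4504, 6675 and 7520.3 in ICR (-1.28 ± 0.31, adjusted p = 0.00265). Bsg, the gene of basigin, was also called lower by limma on changes before the median was subtracted (adjusted p = 0.0184). After that subtraction its change was only -0.20 ± 0.11.

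**Figure D2:**
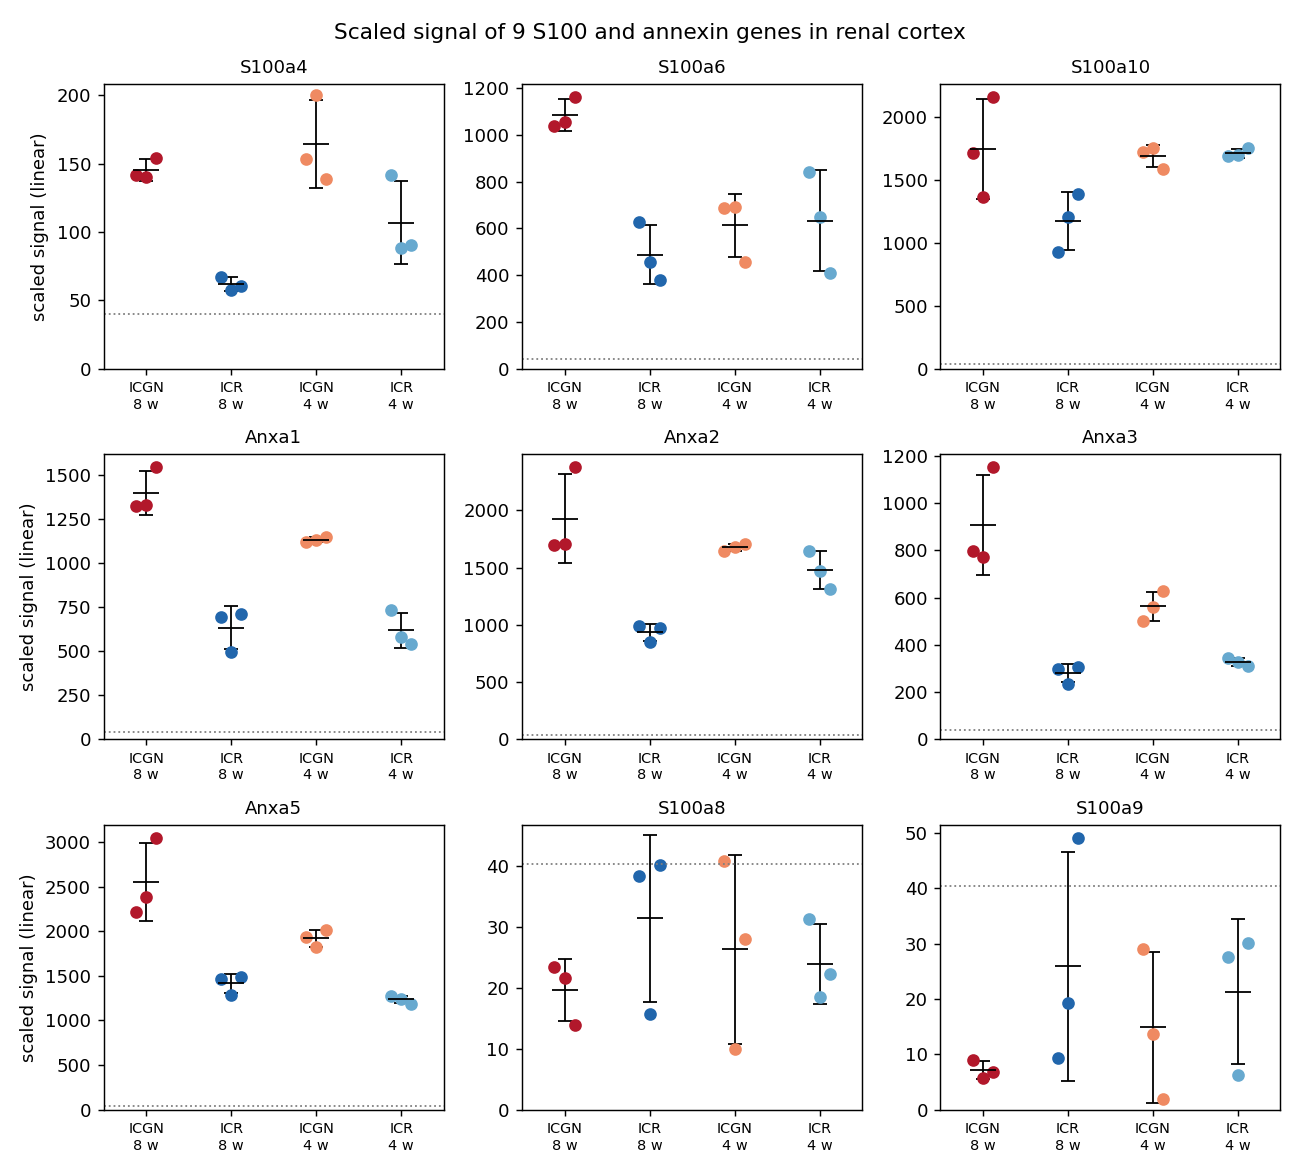
Scaled signal (linear axis) of the main probe set of 9 S100 and annexin genes in each array, by group. Points are arrays, black bars the mean ± SD of 3 arrays and the dotted line the common median of 40.4. At 8 weeks ICGN lies above ICR without overlap for 6 genes and with overlap for S100a10, while S100a8 and S100a9 stay near or under the median.

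At 4 weeks the same comparison asks whether the difference was there in younger mice. Of the 7 members 3 were higher in ICGN and 0 lower, against 1.60% of all tested genes called higher and 1.39% called lower, and the median of the 7 was 0.61. The 3 were annexin genes, Anxa1, Anxa3 and Anxa5, and their groups did not overlap, as in 10.8% of all tested genes with ICGN higher. None of the 3 tested S100 members was called at this age by limma, and 1 of them, S100a4, had an unadjusted p below 0.05.

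Anxa1 had 1121, 1131 and 1147.5 in ICGN at 4 weeks and 732, 583 and 543 in ICR (0.89 ± 0.15, adjusted p = 0.00399). The ICGN arrays were nearly equal and all above ICR. Anxa3 had 500.2, 561 and 627 in ICGN and 343, 326 and 311 in ICR (0.78 ± 0.15, adjusted p = 0.0128). Its call was lost without ICGN replicate 2, without ICGN replicate 3 and without ICR replicate 3, with adjusted p between 0.0512 and 0.0571. Anxa5 had 1931, 1817 and 2012 in ICGN and 1274, 1242 and 1189 in ICR (0.65 ± 0.12, adjusted p = 0.0107).

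The other members were not called at 4 weeks. Anxa2 had 1642, 1683 and 1704 in ICGN and 1643, 1471 and 1311 in ICR (0.21 ± 0.14, adjusted p = 0.597). S100a10 had 1722.5, 1753 and 1585 in ICGN against 1687, 1692.5 and 1748.5 in ICR (-0.0018 ± 0.16, adjusted p = 0.977), so the groups fully overlapped. S100a6 had 689, 694 and 457 in ICGN and 841, 649 and 411 in ICR (0.0046 ± 0.23, adjusted p = 0.988), and both groups were spread widely. S100a4 had 154, 201 and 139 in ICGN against 142, 88.2 and 90.4 in ICR (0.61 ± 0.18, adjusted p = 0.0957), and 1 ICR array reached into the ICGN range. Without that array, ICR replicate 1, S100a4 was called (0.81, adjusted p = 0.0209).

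**Figure D3:**
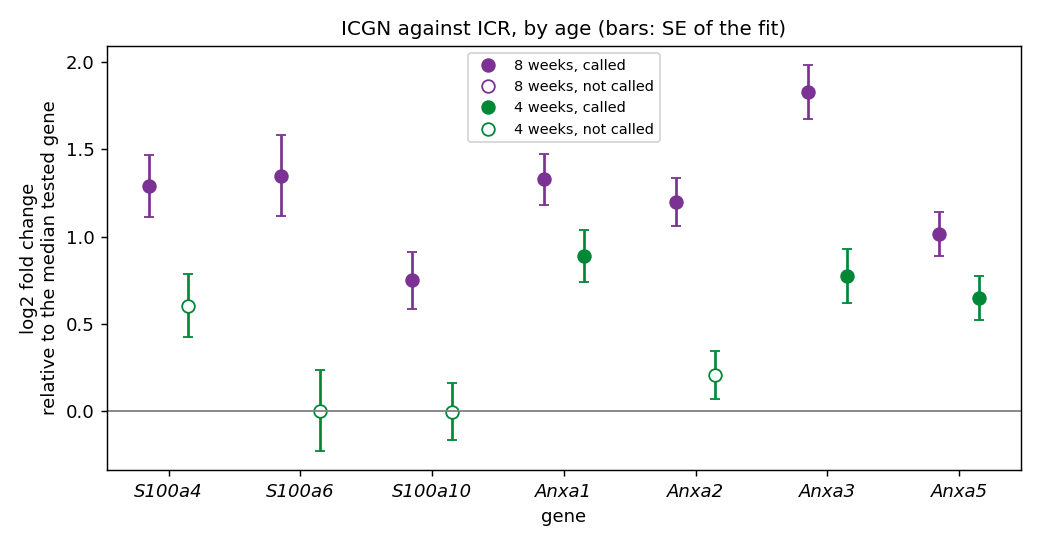
Log2 fold change of ICGN over ICR, less the median of all tested genes (vertical axis), for 7 genes, at 8 weeks (purple) and at 4 weeks (green). Bars are the standard error of the fit and filled points passed an adjusted p of 0.05. All 7 are filled at 8 weeks and 3 annexin genes at 4 weeks.

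Whether the strain difference at 8 weeks exceeded that at 4 weeks was tested as an interaction, in which an effect of age common to both strains cancels. Of the 7 members 3 were called, all with the larger ICGN excess at 8 weeks, against 2.21% of all tested genes called in that direction and 5.68% in the other. They were S100a6 (1.35 ± 0.33, adjusted p = 0.0401), Anxa3 (1.06 ± 0.22, adjusted p = 0.0244) and Anxa2 (1.00 ± 0.19, adjusted p = 0.0207). S100a10 (0.76 ± 0.23, adjusted p = 0.12), S100a4 (0.69 ± 0.25, adjusted p = 0.204), Anxa1 (0.45 ± 0.21, adjusted p = 0.422) and Anxa5 (0.37 ± 0.18, adjusted p = 0.489) did not pass. The S100a6 call was lost in 10 of the 12 fits that left out 1 array, all but those without ICR replicate 1 at 8 weeks or ICR replicate 3 at 4 weeks, with an adjusted p of up to 0.102. It was also lost with no filter (adjusted p = 0.0668), with all probe sets of a gene averaged (0.0502), with every probe set tested (0.0529) and without the mean-variance trend (0.0702). The Anxa2 call was lost when its dim second probe set was averaged in (0.28, adjusted p = 0.805). Tested by itself among all 21826 probe sets, that probe set pointed the other way without passing (-0.39 ± 0.57, adjusted p = 0.608). Its strain difference was 0.88 ± 0.40 at 4 weeks (adjusted p = 0.367) and 0.48 ± 0.40 at 8 weeks. The Anxa3 call was lost without ICGN replicate 1 or 2 or ICR replicate 2 at 4 weeks, with an adjusted p of up to 0.0606.

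Age changes were read within each strain. The authors' files were scaled to a different target at each age, so age and processing cannot be told apart, and the strain and age comparisons share arrays. In ICGN, 8 weeks against 4 weeks, 3 of 7 members rose and 0 fell, against 6.35% of all tested genes called higher and 12.8% called lower. The arrays did not overlap, with 8 weeks higher, in 4 of 7 (12.1% of all), namely these 3 and Anxa1. S100a6 averaged 1086 ± 67.4 at 8 weeks and 613 ± 135 at 4 weeks (SD, n = 3 each; log2 fold change 0.92 ± 0.23, adjusted p = 0.0195), a call lost without ICGN replicate 3 of either age, with an adjusted p of up to 0.0914. Anxa3 averaged 908 ± 212 at 8 weeks and 563 ± 63.2 at 4 weeks (0.74 ± 0.15, adjusted p = 0.00787). Anxa5 averaged 2547 ± 437 and 1920.1 ± 97.8 at 8 and 4 weeks (0.47 ± 0.12, adjusted p = 0.0377). The Anxa5 call was lost in 5 of 12 fits without 1 array (all 3 ICGN arrays of 4 weeks and ICGN replicates 2 and 3 of 8 weeks), with an adjusted p of up to 0.131.

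In ICR, 8 weeks against 4 weeks, 3 of 7 members fell and 0 rose, against 18.0% of all tested genes called higher and 10.7% called lower. The arrays did not overlap, with 8 weeks lower, in 4 of 7 (15.9% of all), the fourth being Anxa3, and with 8 weeks higher in Anxa5 alone (26.1% of all). Anxa2 averaged 937 ± 74.3 at 8 weeks and 1475 ± 166 at 4 weeks (-0.73 ± 0.14, adjusted p = 0.00276). S100a10 averaged 1169.6 ± 232 at 8 weeks and 1709 ± 34.1 at 4 weeks (-0.65 ± 0.16, adjusted p = 0.0171). S100a4 averaged 61.7 ± 5.14 at 8 weeks and 107 ± 30.4 at 4 weeks (-0.76 ± 0.18, adjusted p = 0.0111). The partners Anxa2 and S100a10 thus both had their lowest signals in ICR at 8 weeks. The S100a10 call was lost without ICR replicate 1 of 8 weeks (adjusted p = 0.0825) and that of S100a4 without ICR replicate 1 of 4 weeks (adjusted p = 0.0601). With all probe sets of a gene averaged, Anxa2 (-0.14, adjusted p = 0.823) and S100a10 (-0.33, adjusted p = 0.297) did not pass. In ICGN the same 3 genes stood at 0.26 for Anxa2, 0.10 for S100a10 and -0.07 for S100a4, without passing. Anxa1 did not pass by age in either strain, at 0.38 ± 0.15 in ICGN and -0.06 ± 0.15 in ICR.

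**Figure D4:**
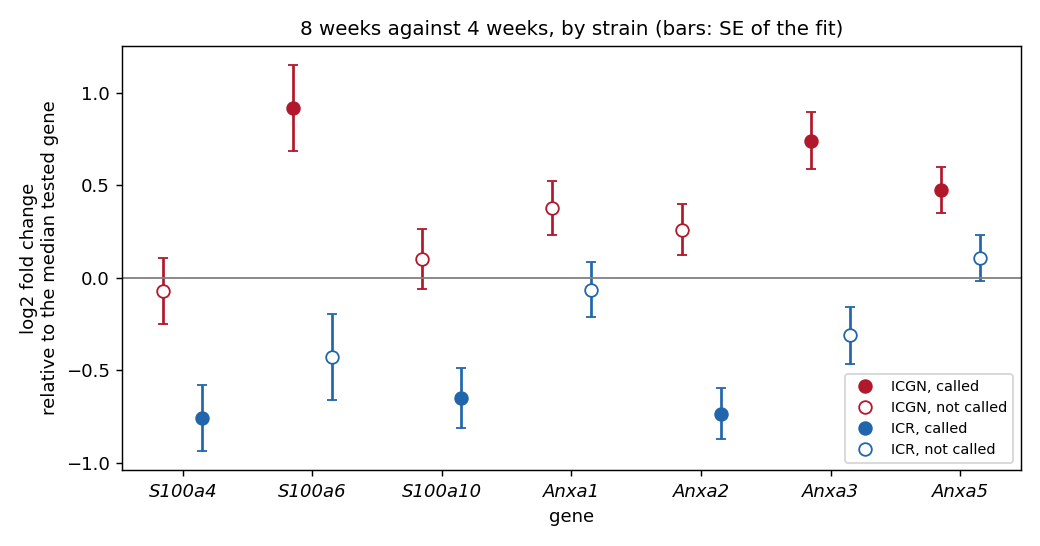
Log2 fold change of 8 weeks over 4 weeks, less the median of all tested genes (vertical axis), for 7 genes in ICGN (red) and ICR (blue). Bars are the standard error of the fit and filled points passed an adjusted p of 0.05. S100a6, Anxa3 and Anxa5 are filled above 0 in ICGN, and S100a4, S100a10 and Anxa2 are filled below 0 in ICR.

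Other genes of the families were read from a list of 18. Of these 15 had a probe set of their own and 9 were tested. At 8 weeks 1 rose and 1 fell, with a median of 0.06, against 8.49% of all tested genes called higher and 26.0% lower. Anxa4, an annexin of epithelial cells, had 1346, 1471 and 1787 in ICGN against 1204.5, 928 and 1334 in ICR (0.60 ± 0.15, adjusted p = 0.0389). Anxa13, an annexin of intestinal and renal epithelium, had 101, 219 and 175 in ICGN and 528, 570.1 and 999 in ICR (-1.83 ± 0.25, adjusted p = 4.0e-05). It went the other way from the tested members, and the groups did not overlap.

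Anxa6 (0.59 ± 0.16, adjusted p = 0.062), Anxa7 (-0.08), Anxa9 (0.05) and the gene of the vitamin D-dependent calcium carrier S100g (0.06) did not pass at 8 weeks. At 4 weeks limma called 0 of the 9, against 1.60% of all tested genes called higher and 1.39% lower. Of the 9, 1 had an unadjusted p below 0.05. The interaction was called for Anxa13 (-1.13 ± 0.35, adjusted p = 0.0353). By age, S100g fell in both strains, averaging 2973 ± 866 in ICGN at 8 weeks and 8416 ± 1415 at 4 weeks (-1.45 ± 0.25), and 3304 ± 1199 in ICR at 8 weeks and 9081 ± 1646 at 4 weeks (-1.59 ± 0.25). Anxa7 rose with age in both (0.69 ± 0.16 in ICGN and 1.11 ± 0.16 in ICR). In ICR Anxa13 also rose (1.59 ± 0.25) while Anxa6 (-0.59) and S100a13 (-0.51) fell, and in ICGN these 3 did not pass (0.46, -0.29 and -0.30).

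The list of 22 partners and receptors had 18 tested genes, of which 5 rose and 3 fell at 8 weeks. Over all tested genes 8.49% were called higher at that age and 26.0% lower. The largest rise was in Myof, the gene of myoferlin, a membrane repair protein of the ferlin family, with 261, 240.5 and 333 in ICGN against 71.9, 49.3 and 46.8 in ICR (2.30 ± 0.17, adjusted p = 1.5e-06). Its relative Dysf did not pass (0.40 ± 0.19, adjusted p = 0.401). The scaffold gene Slc9a3r1 fell (-0.52 ± 0.12). At 4 weeks 2 of the 18 rose, Myof (0.84 ± 0.17, adjusted p = 0.0138) and Fpr2 (1.57 ± 0.36, adjusted p = 0.0275), and 0 fell, with 5 at an unadjusted p below 0.05. Over all tested genes 1.60% were called higher at 4 weeks and 1.39% lower. Fpr2 had 56.5, 43.9 and 54.8 in ICGN and 26.6, 9.74 and 1.499 in ICR at that age, so its ICR arrays were all below the median. It exceeded the median in the ICGN arrays of 4 weeks and in no other array. Fpr2 thus passed the filter only through the group where it was called higher, so its call leans on the filter. The interaction was called for Myof (1.47 ± 0.24) and Pla2g4a (1.19 ± 0.29).

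The profiles of the members differed among themselves. Likeness was taken as the root mean square difference between log2 values over the 12 arrays after each gene was centred on its mean, as a description without a test. The closest members were Anxa1 and Anxa5, at 0.19, followed by Anxa1 and Anxa3, at 0.22, S100a4 and Anxa2, at 0.24, and S100a10 and Anxa2, at 0.25. The farthest apart were S100a10 and Anxa3, at 0.56. Anxa1, Anxa3 and Anxa5 were called higher in ICGN at both ages, as were 124 of all 12385 tested genes (1%). Anxa2, S100a10 and S100a4 were called lower with age in ICR, as were 10.7% of all tested genes. The patterns were not separate. Anxa3 and S100a6 also had their lowest mean in ICR at 8 weeks, at 280 and 488, against 327 and 634 in ICR at 4 weeks. S100a4 averaged 164 in ICGN and 107 in ICR at 4 weeks, without being called.

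Among all 12385 genes the closest to Anxa3 were Lgals3, the gene of the macrophage and injured-epithelium lectin galectin 3, at 0.12, Tnfaip3, an inhibitor of NF-kB signalling, at 0.16, and Serpinb6a, at 0.16. Closest to Anxa1 were Osmr, the oncostatin M receptor gene, at 0.15, Slamf9 at 0.16 and Ch25h at 0.17. S100a4 lay closest to Vim, the gene of the mesenchymal filament vimentin, at 0.19, Fam171a2 at 0.20 and Cyp4f16 at 0.22. S100a6 had no neighbour nearer than Klf5 and Serping1, both at 0.25, and Stap2, at 0.26.

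Markers of cell types were read beside the members, and at 8 weeks 8.49% of all tested genes were called higher and 26.0% lower. Macrophage markers rose in 10 of 11 tested genes at 8 weeks, among them Ctss (2.34), Mpeg1 (2.27), C1qc (2.17) and C1qa (2.04), with a summed signal of 12 genes between 7764.5 and 9707 in ICGN and between 3582 and 4887 in ICR. Injured tubule markers rose in 8 of 9, with a sum of 9 genes between 8505 and 12746 in ICGN and between 2518 and 2774 in ICR. Sox9 and Krt20 exceeded the array median only in ICGN arrays of 8 weeks, and Lcn2 only in ICGN arrays of both ages. They passed the filter through the groups where they were called higher, so the count of 8 of 9 leans on the filter. Fibroblast markers rose in 5 of 10, between 13409 and 14202 in ICGN and between 7981 and 9680.3 in ICR. These lists share no gene with the members, and their part in the results above was not tested.

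At 4 weeks 7 of 11 macrophage and 4 of 9 injured tubule markers rose and 0 fell. Over all tested genes 1.60% were called higher and 1.39% lower. Of the 10 fibroblast markers 0 rose and Col3a1 fell (-0.50), and their sum lay between 13911 and 16509 in ICGN and between 15359 and 20096 in ICR. In ICR the fibroblast sum was thus lower at 8 weeks than at 4 weeks. With age 7 of the 10 markers fell and 1 rose, against 10.7% of all tested genes called lower and 18.0% higher. The members that fell were S100a4, S100a10 and Anxa2. The part of the fibroblast markers in those falls was not tested.

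Neutrophil markers other than Lcn2, which injured tubules also express, were low in all groups, and their sums overlapped between strains. Lcn2 rose at 8 weeks (5.38), and the sum of all 11 genes lay between 531 and 989 in ICGN and between 196 and 223 in ICR. The 10 other genes summed to between 169 and 241 in ICGN and between 182 and 222 in ICR at 8 weeks, and to between 197 and 230.5 in ICGN and between 129 and 235 in ICR at 4 weeks. No value among them exceeded 55.4, and 1 of 30 values in ICGN and 4 of 30 in ICR lay above the array median at 8 weeks. Only Ngp of these passed the filter, and it was not called at 8 weeks (-0.08 ± 0.24, adjusted p = 0.425). The low S100a8 and S100a9 signals stood beside these low markers.

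Markers of urothelium and medulla, a check on the depth of the cut, had 1 gene higher, Mal (0.65), and 1 lower, Aqp3 (-0.54), of 10 at 8 weeks. Their sums overlapped, at between 4389 and 5207 in ICGN and between 4215.5 and 5075 in ICR. Mal averaged 2551 in ICGN and 1842 in ICR, and Aqp3 692 and 1149, so opposite changes can offset each other in the sums. The overlap therefore does not settle the depth of the cut. Proximal tubule markers fell in 8 of 10 at 8 weeks, summing to between 56947 and 72964 in ICGN and between 96106 and 117350 in ICR. Lymphocyte markers had 2 tested genes, of which Ptprc, a marker of all leukocytes, rose (1.51). Endothelial markers fell in 7 of 8, both tested blood markers fell, and podocyte markers had 1 higher of 5. Over all tested genes 8.49% were called higher and 26.0% lower at 8 weeks. Calls were made on changes before the median was subtracted, and after it the endothelial list had a median of -0.44.

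**Figure D5:**
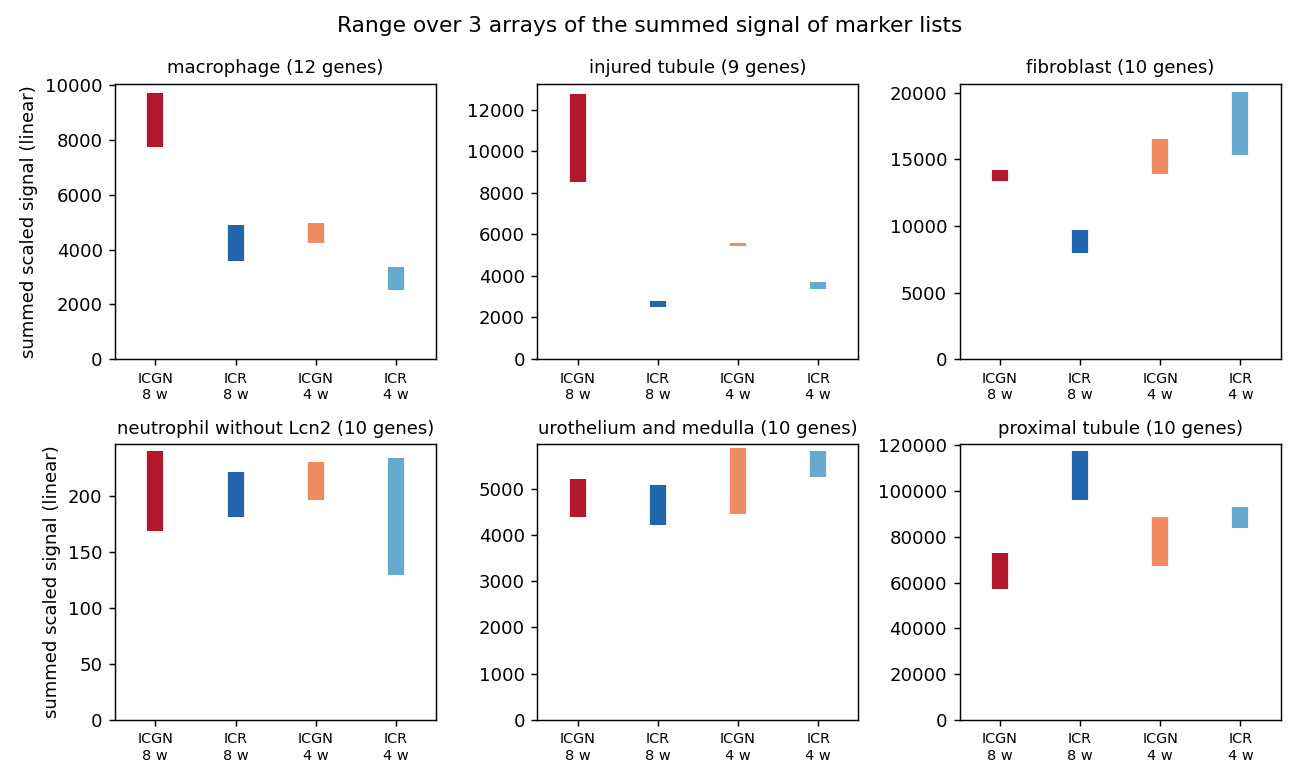
Range over 3 arrays of the summed scaled signal (linear axis) of 6 marker lists, by group. At 8 weeks the macrophage, injured tubule and fibroblast sums of ICGN lie above those of ICR, the proximal tubule sum lies below, and the sums of the neutrophil list without Lcn2 and of the urothelium and medulla list overlap.

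Signals of the RNA quality controls were close between strains at 4 weeks and less so at 8 weeks. The ratio of 3' to 5' Actb control probe sets lay between 1.57 and 1.64 in ICGN and between 1.70 and 2.10 in ICR at 8 weeks, and between 1.34 and 1.49 in ICGN and between 1.36 and 1.45 in ICR at 4 weeks. The same ratio for Gapdh lay between 0.783 and 0.820 in all groups. The part of the Actb difference in the results at 8 weeks was not tested.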

How the data were processed

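The deposited table holds the authors' signal intensity per probe set for 12 arrays on a linear scale, made with MAS5 per the submitters' processing notes. The version and the genome build are not given in the sources used here. Trimmed means were 500 at 8 weeks and 100 at 4 weeks on all arrays, while medians ran 75.3 to 108 (8 weeks) and 17.4 to 19.0 (4 weeks). Each array was therefore scaled to a common median of 40.4. With R 4.3.3 and limma 3.58.1, log2(signal + 11) was fitted with 4 group means, with a mean-variance trend and 8 residual degrees of freedom. The offset is the 25th percentile of the scaled table. The brightest probe set stood for a gene, those ending in _x_at coming last, and P-values were adjusted over 12385 genes. The test is on values before the median fold change was subtracted, and the fit was tested on simulated data. Array annotation named 1 symbol for 34945 of 45101 probe sets besides 64 controls.

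The members, the gene lists and the rule for genes named (all members with every probe set, called genes of the family and partner lists, up to 4 called markers a list, and the 3 nearest profiles of the 4 most changed members) were chosen with earlier results of these data known. Partner, receptor and family genes that were not called are named beyond that rule, chosen after their values were seen. Alternatives were the offset, the scaling, the filter, the choice of probe set, the variance model, the arrays in the fit, a replicate block and leaving out each array. Same-numbered arrays deviated together no more than others (r between -0.10 and 0.12, against -0.17 to 0.15), so the numbers were not taken as pairs. With 3 arrays a group, their number sets the precision.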

Additional observations from a re-analysis of the deposited data

Results flagged for a closer look

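The strain difference of 3 members was larger at 8 weeks than at 4 weeks by the interaction test of limma over all tested genes. It was larger by 1.35 for S100a6 (adjusted p = 0.0401), by 1.06 for Anxa3 (adjusted p = 0.0244) and by 1.00 for Anxa2 (adjusted p = 0.0207), all on the log2 scale. Over the 23 alternatives run for the interaction the adjusted p ranged from 0.0141 to 0.102 for S100a6, from 0.0035 to 0.0606 for Anxa3 and from 0.00237 to 0.805 for Anxa2. In all 3 genes the ICGN arrays of 8 weeks lay above the ICR arrays of that age, and for S100a6 and Anxa2 the arrays of 4 weeks overlapped.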

How the results depend on the processing

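The 7 members called higher at 8 weeks and the 3 at 4 weeks were the same number under each of the 12 settings other than leaving out an array, except that the filter at the 75th percentile left 6 members to test at 8 weeks and called 6. Leaving out 1 array gave 6 to 7 at 8 weeks, 2 to 4 at 4 weeks, 1 to 3 for the interaction, 1 to 3 for age in ICGN and 2 to 4 for age in ICR. The interaction count was 5 under quantile normalization and 1 with all probe sets of a gene averaged, and the count for age in ICR was 1 under that averaging. Of 814 member values 756 kept direction and call, 36 lost a call, 6 gained one and 16 changed sign. The sign changes were in values near 0. S100a10 at 4 weeks was 0.042 under quantile normalization, 0.00039 under the authors' scaling, 0.014 with the filter at the 75th percentile, 0.11 with probe sets averaged and 0.0045 with every probe set tested, and lay between -0.040 and 0.049 without 1 array. S100a6 at 4 weeks was -0.0084 with no filter and between -0.30 and 0.24 without 1 array. Anxa5 by age in ICR was -0.013 under quantile normalization. Without 1 array, the age change of S100a4 in ICGN lay between -0.18 and 0.081, that of S100a10 between -0.0013 and 0.27, and that of Anxa1 in ICR between -0.18 and 0.081. The cause was not tested. The authors' scaling gave no value for the age changes, nor did a fit of only the arrays compared for the interaction. Over all genes the share of calls that were higher in ICGN at 8 weeks was 24.6%, against 50.4% under quantile normalization, 36.2% when centred on tested genes and 60.0% under the authors' scaling. For the interaction these shares were 28.0%, 53.96%, 39.9% and 58.6%, and for age in ICR 62.7% and 45.2% under quantile normalization. Calls over all genes at 4 weeks numbered 370, against 562 under quantile normalization and as few as 173 without 1 array, those of the interaction 978, against as few as 474, and those of age in ICGN 2371, against as few as 1473. With every probe set tested, age calls numbered 4289 in ICGN and 6023 in ICR, out of 21826 probe sets. The main fit had 2371 and 3556 out of 12385 genes, so these counts have unlike totals and do not compare directly. As the samples share only a number, the replicate block was a check: it left 7 members called at 8 weeks, 3 at 4 weeks, 3 for the interaction and 3 for each age change, and 5 of 12 arrays correlated best with their own number. No detection call was used, so dim probe sets such as those of S100a8 and S100a9 have no stated background.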
